A study of Mus musculus with 12 samples.

Results

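The hexokinase isoforms described here are 4 genes, Hk1, Hk2, Hk3 and Hkdc1, taken by symbol from the 24061 genes listed in each deposited table, and all 4 were listed. RNA was measured in 12 mouse hearts, of which 6 carried the genotype HKII+/- and 6 the genotype HKII+/+. All came from chow-fed males of the strain C57BL/6J at an age between 2 and 4 months. HKII is hexokinase II, the product of Hk2. The HKII+/- hearts are heterozygous for an altered allele of that gene, and the HKII+/+ hearts are wild type. How the altered allele was made, and whether it still gives a transcript, is not given in the sources used here, and any reads from it would be counted with those of the normal allele. The submitters marked the library labelled HKII+/- replicate 11 and the library of HKII+/+ replicate 13 as potential outliers. Results are given both with these libraries, at 6 hearts a genotype, and after leaving them out, at 5 a genotype. The comparison asks how the isoforms share the hexokinase transcripts of the heart when 1 allele of Hk2 is altered, and whether the other isoforms make up the summed pool.

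Hexokinases phosphorylate glucose to glucose 6-phosphate, the step that traps glucose in the cell and opens glycolysis, glycogen synthesis and the pentose phosphate pathway. Hk1 is found in most tissues and dominates in brain and red blood cells, while Hk2 is the insulin-responsive isoform of skeletal muscle, heart and fat. Both proteins can dock on the outer membrane of mitochondria through their N-terminus and the channel VDAC, and Hk3 lacks that docking sequence. Hk3 is known mainly from myeloid blood cells, and Hkdc1 from epithelia of gut, kidney and liver.

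All 4 genes are annotated as protein coding on the minus strand of GRCm38. Hk2 (ENSMUSG00000000628.10) lies at chr6:82725025-82774454. Hk1 (ENSMUSG00000037012.18) lies at chr10:62268855-62379908 and Hkdc1 (ENSMUSG00000020080.8) is its upstream neighbour at chr10:62383137-62422491. Hk3 (ENSMUSG00000025877.14) lies at chr13:55005985-55021385. The antisense gene Hk1os overlaps Hk1 and held 0 to 9 counts per library. The antisense gene Gm17034, which the tables do not list, overlaps Hk2, and Unc5a overlaps Hk3 on the other strand over 34 bases. Whether counting used the strand is not given in the sources used here.

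The 250 bases before the start of Hk2 and of the inner start of Hk1 are shown, since these 2 genes held nearly all hexokinase counts and Hk2 is the gene with the altered allele. They are RefSeq sequences of GRCm38.p6, written along the gene (minus strand). Capitals mark matches, on either strand, to a CCAAT box (CCAAT), a GC box (GGGCGG) or the half-site of a cyclic AMP response element (TGACG).
Hk2, chr6:82774455-82774704: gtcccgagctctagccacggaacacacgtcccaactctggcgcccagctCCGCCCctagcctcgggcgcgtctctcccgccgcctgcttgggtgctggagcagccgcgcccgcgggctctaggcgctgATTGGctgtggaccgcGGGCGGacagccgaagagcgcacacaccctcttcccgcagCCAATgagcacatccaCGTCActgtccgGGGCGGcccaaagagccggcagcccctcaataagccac
Hk1, chr10:62340422-62340671: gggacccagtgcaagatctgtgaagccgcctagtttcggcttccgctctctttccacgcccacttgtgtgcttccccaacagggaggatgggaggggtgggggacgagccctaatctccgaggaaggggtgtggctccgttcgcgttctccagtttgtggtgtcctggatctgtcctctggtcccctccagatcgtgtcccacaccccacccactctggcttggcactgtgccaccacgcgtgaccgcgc
The Hk2 window held 2 CCAAT matches, 3 GC box matches and 1 half-site, with no overlap between them, and no match to an E-box (CACGTG) or to the full element (TGACGTCA). Of 32851 promoter windows of the same length, 33.8% held a CCAAT match, 32.7% a GC box match, 17.8% a half-site, 6.02% an E-box match and 1.55% the full element. All 3 of CCAAT, GC box and half-site were found in 3.04% of windows. The Hk1 window held none of these letters, nor did the windows of its outer start (chr10:62379909-62380158), Hk3 or Hkdc1. The Hk2 window was 69.6% G and C, against 62.8% and 49.6% for the inner and outer Hk1 windows, 47.2% for Hk3 and 49.6% for Hkdc1. Counts per gene do not tell which start of Hk1 was used.

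Deposited counts summed to 17263209 to 51556592 per library. The 2 marked libraries stood apart in several markers of the heart's cell types, all in CPM, the counts per library scaled to a common total with TMM factors (trimmed mean of M values) over the 12 libraries. The 7 listed cardiomyocyte markers, not all of them specific to the ventricle, stand for the cells that the tissue label implies. They summed to 65190 to 89004 CPM in the 5 unmarked HKII+/- libraries and to 70076 to 77903 CPM in the 5 unmarked HKII+/+ libraries. In the library labelled HKII+/- replicate 11 they summed to 168756 CPM, and in HKII+/+ replicate 13 to 185329 CPM. The 6 fibroblast markers summed to 12608 CPM in the library labelled HKII+/- replicate 11 and 3930 CPM in HKII+/+ replicate 13, against 961 to 1624 CPM in the unmarked libraries. Markers of airway epithelium summed to 281.5 CPM in the library labelled HKII+/- replicate 11 and to at most 1.84 CPM in each of the others. The 6 markers of atrial cardiomyocytes split the unmarked HKII+/- libraries. They summed to 366 CPM in replicate 19 and 457 CPM in replicate 22, against 5748 to 7196 CPM in replicates 12, 16 and 20 and 2436 to 6189 CPM in the unmarked HKII+/+ libraries, and to 17598 CPM in the library labelled HKII+/- replicate 11. Results are therefore also given without replicates 19 and 22, an alternative chosen after seeing the data. Scaling factors over the 12 libraries were 0.787 and 0.76 in the 2 marked libraries and 0.992 to 1.09 in the rest. Values of the 10 unmarked libraries below were scaled among those 10, with factors of 0.945 to 1.04. Shares within a library carry no such factor.

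Hk2 held 54.6% ± 0.91 of the summed hexokinase counts in unmarked HKII+/- hearts and 68.1% ± 1.65 in unmarked HKII+/+ hearts (SD, n = 5 each). Its share was 54.6% in HKII+/- replicate 12, 54.8% in 16, 55.3% in 19, 53.1% in 20 and 55.4% in 22. In HKII+/+ hearts it was 65.5% in replicate 14, 67.5% in 15, 68.4% in 17, 69.3% in 18 and 69.6% in 21. All 5 HKII+/- values lay below all 5 HKII+/+ values, and the HKII+/- values spanned a narrower range. The difference was -13.4 percentage points (95% interval -15.3 to -11.4, from inverting the exact permutation test), and the exact permutation test gave a two-sided p of 0.00794, the smallest that 252 splits can give. Without HKII+/- replicates 19 and 22 as well, the difference was -13.9 points (exact two-sided permutation p = 0.0179, n = 3 and 5, the smallest that this design allows). Counting error was small beside this, at 0.53 to 0.92 percentage points on either side (95% Wilson interval) in the 12 libraries. Such intervals cover counting error only.

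The library labelled HKII+/- replicate 11 went against its label in this measure. Its Hk2 share was 69.1% (95% Wilson interval 68.4% to 69.7%), inside the range of the HKII+/+ libraries and above the other 5 HKII+/- libraries, whose highest was 55.4%. The other marked library, HKII+/+ replicate 13, had a share of 64.2%, the lowest of its genotype but still above the 5 unmarked HKII+/- libraries. With all 12 libraries the mean share was 57.0% ± 5.96 in HKII+/- and 67.4% ± 2.17 in HKII+/+ hearts (SD, n = 6 each), a difference of -10.4 points (95% interval -14.7 to -4.59, exact two-sided permutation p = 0.0108 over 924 splits). Of the 6 HKII+/- libraries, 5 lay below all HKII+/+ libraries. The share and the ratio given further on were each tested with 12 and with 10 libraries, and over these 4 tests the Benjamini-Hochberg adjusted p of each exact permutation test was 0.013.

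**Figure D1:**
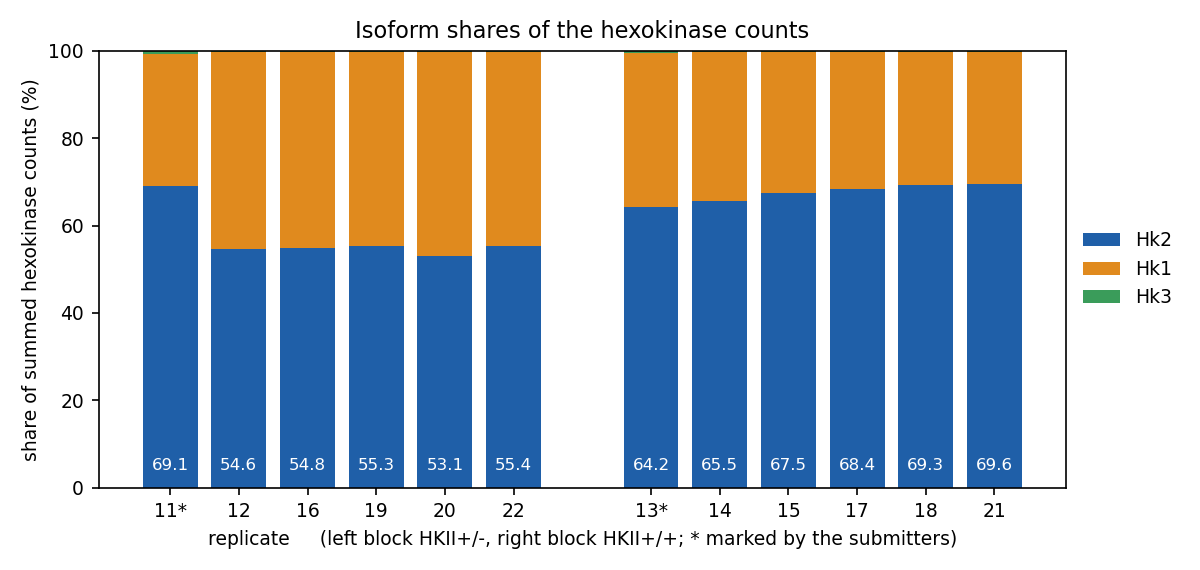
Share of the summed counts of Hk1, Hk2, Hk3 and Hkdc1 (%, vertical axis) held by each isoform in each library, HKII+/- on the left and HKII+/+ on the right; figures in the bars give the Hk2 share, an asterisk marks the 2 libraries the submitters marked, and Hkdc1 (at most 1 count) is too small to draw. The unmarked HKII+/- libraries sit between 53.1% and 55.4% and the unmarked HKII+/+ libraries between 65.5% and 69.6%, while the library labelled HKII+/- replicate 11 stands at 69.1%.

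Hk1 took up nearly all of the remainder. Its share was 45.1% ± 0.925 in unmarked HKII+/- hearts and 31.7% ± 1.66 in unmarked HKII+/+ hearts (SD, n = 5 each). As the shares of a library add up to the whole, this is the mirror of the Hk2 share and not a separate result. Hk3 held 0.202% to 0.317% of the counts in unmarked HKII+/- and 0.194% to 0.248% in unmarked HKII+/+ hearts. It was highest in the library labelled HKII+/- replicate 11 (0.817%) and in HKII+/+ replicate 13 (0.471%). Hkdc1 was at 0 or 1 count in every library. A count of 0 allows a share of up to 0.0269% in the library with the fewest hexokinase counts (HKII+/- replicate 16, 0 of 11149), so expression of Hkdc1 was not detectable at this depth in the libraries at 0.

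In levels, Hk2 was lower and Hk1 was close to its HKII+/+ level. Among the unmarked libraries, Hk2 stood at 289 CPM in HKII+/- replicate 12, 282 in 16, 329 in 19, 268 in 20 and 372 in 22. It stood at 493 CPM in HKII+/+ replicate 14, 570 in 15, 549 in 17, 553 in 18 and 514 in 21. The mean was 307.9 ± 42.3 CPM for HKII+/- and 535.7 ± 31.5 CPM for HKII+/+ (SD, n = 5 each). It fell in the fit across 14139 tested genes, with a log2 fold change of -0.80 (SE 0.09) and an adjusted p of 0.0165 (edgeR, Benjamini-Hochberg), so that the HKII+/- level was 57.5% of the HKII+/+ level (95% interval 50.3% to 65.7%). It was the 1 gene that passed, so 0.00707% of genes were called, and the 5 HKII+/- libraries lay below the 5 HKII+/+ libraries as was so for 0.248% of genes. When a further library was left out this call was lost in 7 of 10 fits (edgeR adjusted p 0.00106 to 0.0951), namely without HKII+/- replicate 12, 16, 19 or 20 or HKII+/+ replicate 15, 17 or 18. HKII+/- replicates 19 and 22, with the low atrial markers, held the highest Hk2 of the unmarked HKII+/- libraries, and without them the log2 fold change was -0.94 (SE 0.06, edgeR adjusted p = 0.000238). On the scale of all 12 libraries Hk2 stood at 568 CPM in the library labelled HKII+/- replicate 11 and at 653 CPM in HKII+/+ replicate 13. With all 12 libraries it had a log2 fold change of -0.66 (SE 0.19), an unadjusted p of 0.00542 and an edgeR adjusted p of 1.0, where 0% of 14107 genes were called. An unadjusted p under 0.05 was found for 0.262% of genes, and for 0.0922% in the direction of Hk2.

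**Figure D2:**
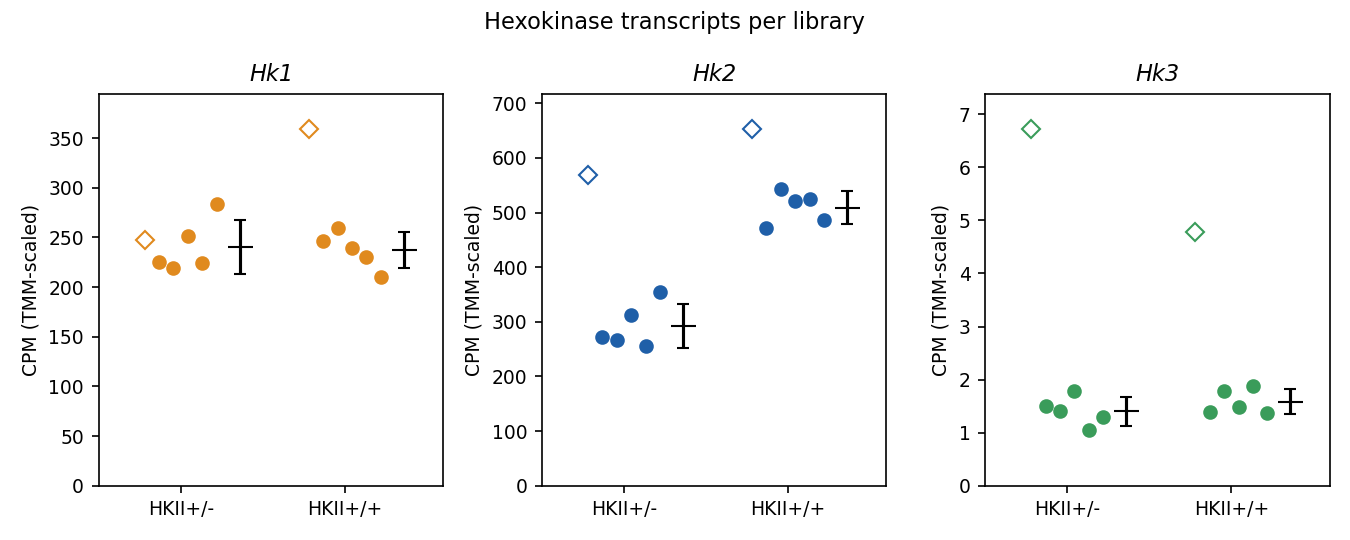
TMM-scaled CPM (vertical axes, starting at 0 and on separate scales) of Hk1, Hk2 and Hk3 in each library, HKII+/- left of HKII+/+; filled circles are unmarked libraries, open diamonds the 2 marked ones, and black bars the mean and SD of the 5 unmarked libraries. Hk2 separates the unmarked libraries of the genotypes, Hk1 does not, and Hk3 is highest in the marked libraries.

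Hk1 differed between the genotypes by less than the spread of its replicates. In the unmarked libraries, scaled among themselves, it measured 239 CPM in HKII+/- replicate 12, 231 in 16, 264 in 19, 235 in 20 and 298 in 22. In HKII+/+ hearts it measured 258 CPM in replicate 14, 272 in 15, 252 in 17, 243 in 18 and 223 in 21. The groups overlapped, with HKII+/- replicate 22 above every HKII+/+ library. The highest HKII+/- values were again those of replicates 19 and 22, and without them the log2 fold change was -0.09 (SE 0.06, edgeR adjusted p = 0.762). The part of the atrial share of the tissue in these levels was not tested. The HKII+/- libraries averaged 253 ± 28.1 CPM and the HKII+/+ libraries 249 ± 18.3 CPM (SD, n = 5 each), and edgeR gave a log2 fold change of 0.02 (SE 0.08, 95% interval -0.15 to 0.20). All 12 libraries put Hk1 at -0.09 (SE 0.14, 95% interval -0.38 to 0.21). On this TMM scale the sign turned on HKII+/+ replicate 13, at 359 CPM where the remaining HKII+/+ libraries held 210 to 259 CPM. With only replicate 13 left out the value was 0.04. Hk1 did not pass in edgeR in either set (adjusted p = 1.0 in both).

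The ratio of Hk2 to Hk1 counts within a library needs no scaling between libraries and does not use the low isoforms. As those isoforms held so few counts, the ratio nearly restates the Hk2 share and is not a separate result. It averaged 1.21 ± 0.0441 in unmarked HKII+/- and 2.15 ± 0.16 in unmarked HKII+/+ hearts (SD, n = 5 each). As a difference of mean log2 ratios this was -0.83, so that the HKII+/- ratio was 56.4% of the HKII+/+ ratio (95% interval 52.0% to 61.7%, exact two-sided permutation p = 0.00794, n = 5 each). Across the unmarked HKII+/- libraries the ratio ranged from 1.14 to 1.25, and across the unmarked HKII+/+ libraries from 1.91 to 2.31. It was 2.30 in the library labelled HKII+/- replicate 11 and 1.82 in HKII+/+ replicate 13. With all 12 libraries the HKII+/- ratio was 64.5% of the HKII+/+ ratio (95% interval 53.4% to 83.4%, exact two-sided permutation p = 0.013, n = 6 each). Without the library labelled HKII+/- replicate 11, the difference was -0.79 on the log2 scale.

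**Figure D3:**
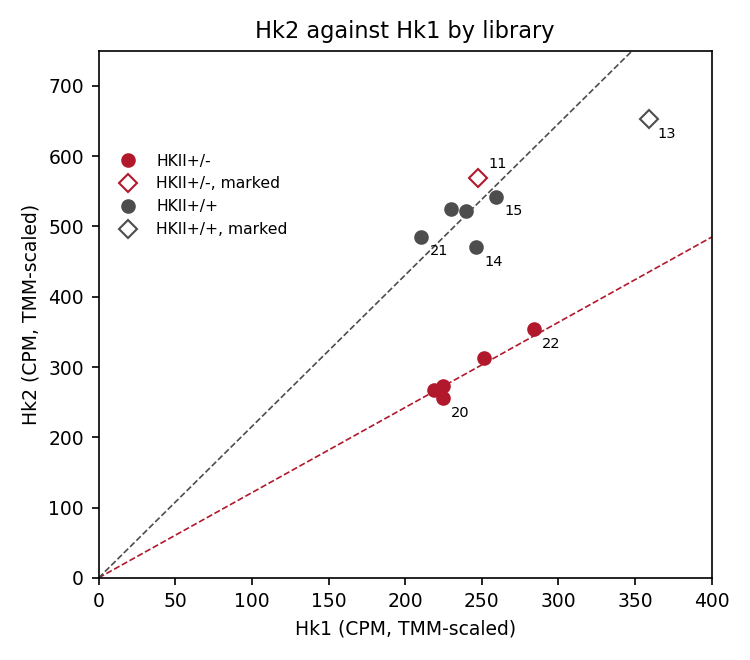
Hk2 (vertical axis) against Hk1 (horizontal axis), both in TMM-scaled CPM, for each of the 12 libraries; filled circles are unmarked, open diamonds marked by the submitters, some replicate numbers are printed, and dashed lines through the origin have the mean Hk2 to Hk1 ratio of the 5 unmarked libraries of each genotype (1.21 for HKII+/- and 2.15 for HKII+/+). The unmarked HKII+/- libraries follow the lower line over their whole range of Hk1, and the library labelled HKII+/- replicate 11 lies on the HKII+/+ side.

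The summed pool of the 4 isoforms was lower in HKII+/- hearts, and the other isoforms did not make up the difference. No test is given for this sum, as the members were chosen with earlier results of these data known. In the unmarked libraries the pool measured 529 CPM in HKII+/- replicate 12, 514 in 16, 595 in 19, 504 in 20 and 671 in 22. It measured 752 CPM in HKII+/+ replicate 14, 843 in 15, 803 in 17, 797 in 18 and 738 in 21. The groups did not overlap, and the lowest HKII+/+ library lay above HKII+/- replicate 22, the highest of its genotype. The HKII+/- mean was 563 ± 70.2 CPM and the HKII+/+ mean 787 ± 42.3 CPM (SD, n = 5 each), so the HKII+/- pool was 71.5% of the HKII+/+ pool.

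The difference of -224 CPM between these means was made up of -228 CPM from Hk2, 4.03 CPM from Hk1, -0.187 CPM from Hk3 and 0.00405 CPM from Hkdc1. The mean difference in Hk1 thus came to 1.77% of the loss of Hk2, and its sign rested on single libraries. The log2 fold change of Hk1 was -0.014 without HKII+/+ replicate 21, -0.042 without HKII+/- replicate 22 and at most 0.054 when another of the 10 was left out. The upper end of the 95% interval of the Hk1 change was 36.3 CPM above its HKII+/+ mean, or 15.9% of the loss. To refill the pool Hk1 would have had to reach 1.91 times its HKII+/+ level, a log2 fold change of 0.94, which lies outside its interval of -0.15 to 0.20. These values are in CPM, where a longer transcript weighs more. Per kilobase of exon Hk1 would have had to reach 2.31 times its HKII+/+ level, and per kilobase of the longest transcript 1.71 times. The upper end of the Hk1 interval then came to 11.2% and 20.5% of the loss of Hk2. Without HKII+/- replicates 19 and 22 the pool was 65.6% of the HKII+/+ pool.

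With the 2 marked libraries the pool averaged 582 ± 132 CPM for HKII+/- and 792 ± 116 CPM for HKII+/+ (SD, n = 6 each), or 73.5% of the HKII+/+ pool. The library labelled HKII+/- replicate 11 then held 822 CPM, above every HKII+/+ library but replicate 13, which held 1016 CPM. In this set Hk2 gave -195 CPM and Hk1 -15.6 CPM of a total of -210 CPM, so the mean of Hk1 moved the same way as Hk2. The upper end of the Hk1 interval was 39.3 CPM above its HKII+/+ mean, 20.2% of the loss of Hk2. On the same scale but with the library's total alone and no TMM factor, the pool was 511 to 646 in the 6 HKII+/- libraries and 709 to 857 in the 6 HKII+/+ libraries, and these did not overlap. The highest HKII+/- value on that scale was again that of replicate 11. Hk2 alone likewise did not overlap on that scale, at 271 to 446 in HKII+/- and 494 to 579 in HKII+/+ libraries, as was so in that direction for 0.0142% of genes tested.

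**Figure D4:**
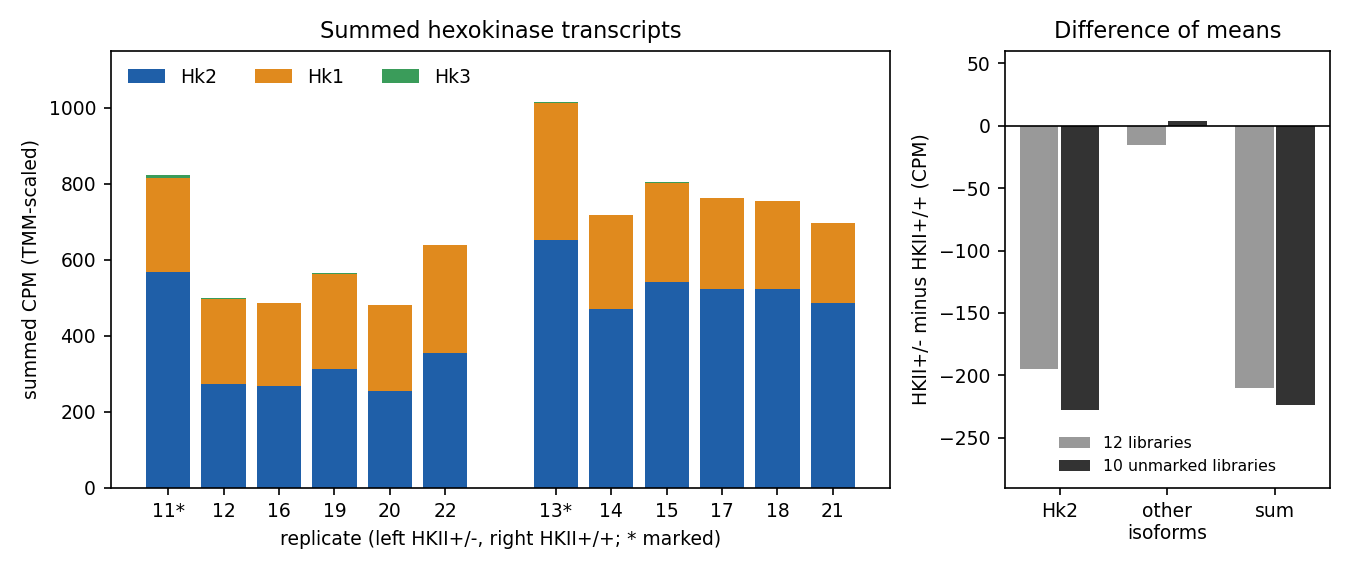
Left, summed TMM-scaled CPM of the hexokinase isoforms in each library, stacked by isoform, HKII+/- left of HKII+/+, with an asterisk on the 2 marked libraries. Right, the difference of the genotype means (HKII+/- minus HKII+/+, CPM) for Hk2, for the other isoforms together and for their sum, with 12 libraries (grey) and with the 10 unmarked ones (black); the other isoforms differ by -15.4 and 3.84 CPM, against -195 and -228 CPM for Hk2.

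Read counts grow with transcript length, so the shares, ratios and sums given so far are of counts, and the isoforms were ranked by level only per kilobase. Per kilobase of annotated exon (8532 bases for Hk1, 5969 for Hk2, 3682 for Hk3), the order was Hk2, Hk1, Hk3 in every library. In unmarked HKII+/- hearts Hk2 stood at 51.6 ± 7.09, Hk1 at 29.7 ± 3.3 and Hk3 at 0.402 ± 0.0794 CPM per kilobase (SD, n = 5). In unmarked HKII+/+ hearts the values were 89.7 ± 5.27, 29.2 ± 2.15 and 0.453 ± 0.0673 CPM per kilobase (SD, n = 5). The Hk2 share of the pool on this scale was 63.1% ± 0.845 in HKII+/- and 75.1% ± 1.41 in HKII+/+ hearts. The exons of Hk1 are drawn from 20 annotated transcripts, and the longest of these has 4278 bases, against 5513 for Hk2. Per kilobase of the longest transcript, a scale chosen after seeing the data, Hk2 and Hk1 were close in unmarked HKII+/- hearts, where the ratio of Hk2 to Hk1 was 0.941 ± 0.0343, and Hk2 led in unmarked HKII+/+ hearts, where it was 1.67 ± 0.124 (SD, n = 5 each). Which of the 2 isoforms is the more abundant in HKII+/- hearts therefore turned on the length used, while Hk2 was ahead in HKII+/+ hearts on both scales.

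Hk3 did not pass the test, and its highest values were in the marked libraries. It measured 1.59 CPM in HKII+/- replicate 12, 1.47 in 16, 1.89 in 19, 1.09 in 20 and 1.36 in 22, and in HKII+/+ hearts 1.46 CPM in replicate 14, 1.88 in 15, 1.56 in 17, 1.98 in 18 and 1.45 in 21. These ranges overlapped, and the values rest on 26 to 68 counts per library. In edgeR, Hk3 had a log2 fold change of -0.17 (SE 0.17, 95% interval -0.55 to 0.20, adjusted p = 1.0) without the marked libraries and 0.12 (SE 0.50, 95% interval -0.97 to 1.22, edgeR adjusted p = 1.0) with them. On the 12-library scale Hk3 was at 6.72 CPM in the library labelled HKII+/- replicate 11 and 4.79 CPM in HKII+/+ replicate 13. The 5 listed macrophage markers were also higher there, at a summed 469.9 CPM and 309.5 CPM in these libraries against 137 to 181 CPM in the other HKII+/- and 141 to 182 CPM in the other HKII+/+ libraries. This was not particular to macrophages. Fibroblast markers (12608 and 3930 CPM) and Schwann cell markers (107.6 and 42.2 CPM) were also highest in these 2 libraries, while the listed skeletal muscle markers were lowest (433 and 1006 CPM). Of these 8 skeletal muscle markers, 4 were under 1 CPM in every unmarked library. Their sum thus rests on the rest of the list and does not tell whether skeletal muscle was present. The 5 listed neutrophil markers, 3 of them under 1 CPM in every unmarked library, summed to 5.27 and 3.34 CPM in the marked libraries, against 3.05 to 4.72 CPM in the others. The part of any cell type in the Hk3 level was not tested. In whole hearts, fewer cells of a type and less RNA per cell cannot be told apart.

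**Figure D5:**
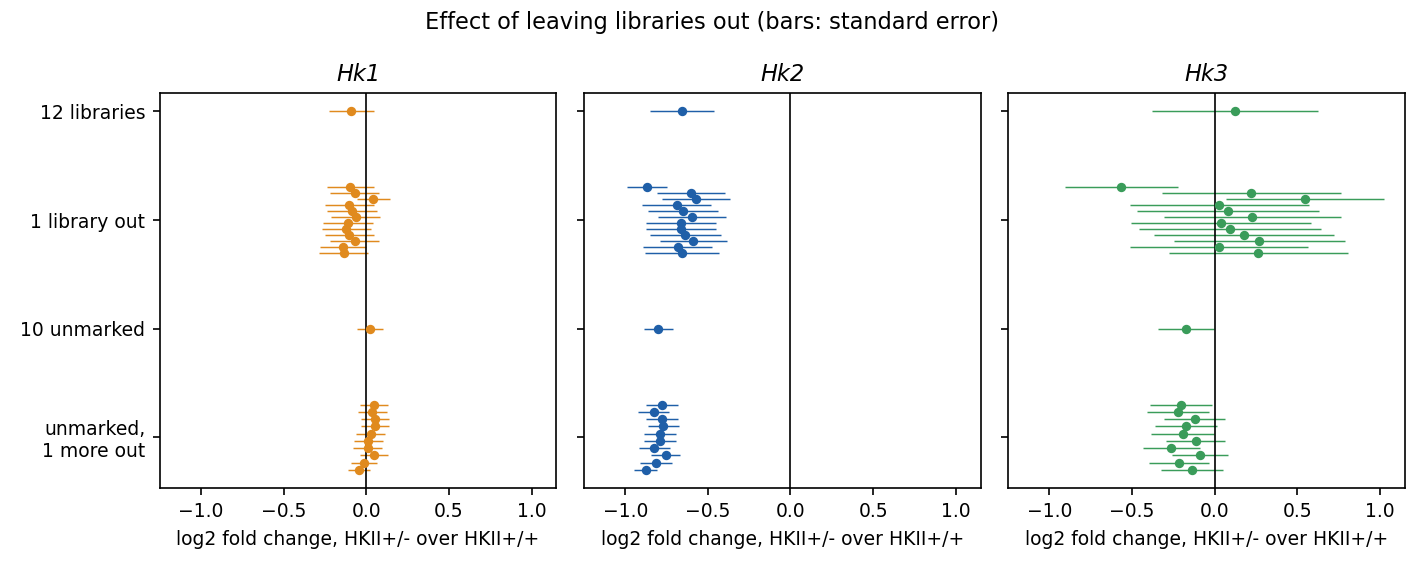
Log2 fold change of HKII+/- over HKII+/+ (horizontal axis, edgeR, bars give the standard error) for Hk1, Hk2 and Hk3 with 12 libraries, with each library left out in turn, with the 10 unmarked libraries, and with each of those left out in turn. Hk2 is below 0 in every fit, from -0.57 to -0.88, Hk1 stays within -0.14 to 0.05, and Hk3 ranges from -0.57 to 0.55.

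Of the genes around the hexokinase step, none passed the test in either set of libraries. The list of glucose phosphorylation and dephosphorylation outside the members had 4 of 6 genes tested, with 1 above and 3 below 0 in the unmarked libraries (median log2 fold change -0.07, against -0.005 over all genes). It held the glucose 6-phosphate transporter Slc37a4 at -0.08 (SE 0.08), the phosphatase G6pc3 at -0.05 (SE 0.06) and the ADP-dependent glucose kinase Adpgk at 0.04 (SE 0.06). Glucose entry and the first fates of glucose 6-phosphate had 12 of 13 genes tested, 5 above and 7 below 0 (median -0.02). There the glucose transporter Slc2a1 was at -0.13 (SE 0.06), the transporter Slc2a12 at -0.09 (SE 0.08) and the phosphoglucomutase Pgm1 at 0.10 (SE 0.11).

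Glycolysis below hexokinase had 14 of 16 genes tested, 13 above and 1 below 0 in the unmarked libraries (median 0.03), and 3 above and 11 below 0 with all 12 (median -0.07), so the balance of signs turned with the marked libraries. Its genes with the smallest p were the mutase Pgam1 at 0.11 (SE 0.10), lactate dehydrogenase A (Ldha) at 0.07 (SE 0.08) and the muscle enolase Eno3 at 0.08 (SE 0.10). The docking partners and regulators at mitochondria had 10 of 10 genes tested, 4 above and 6 below 0 (median -0.01), among them the outer membrane protein Tspo at -0.06 (SE 0.10), the channel Vdac2 at 0.04 (SE 0.06) and the kinase Akt2 at -0.02 (SE 0.05). Transcription factors linked to hexokinase genes had 12 of 12 tested, 6 above and 6 below 0 (median 0.002). Of these Hif1a, the hypoxia-inducible factor, was at -0.08 (SE 0.06), Mlx, the partner of the glucose sensor ChREBP, at 0.07 (SE 0.05) and the cyclic AMP response factor Creb1 at 0.12 (SE 0.12). In these 5 lists 0 genes had an unadjusted p under 0.05 by edgeR, and 0 passed after adjustment, in either set, where 2.8% of genes had an unadjusted p under 0.05 in the unmarked libraries.

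After each genotype's mean was taken off, log2 CPM of Hk1 and Hk2 correlated at r = 0.82 (rho = 0.68) over the 10 unmarked libraries, Hk1 and Hk3 at r = 0.24 (rho = 0.37), and Hk2 and Hk3 at r = 0.45 (rho = 0.58). The relation of Hk1 to Hk2 rested on HKII+/- replicates 19 and 22, which had the low atrial markers: without them, over 8 libraries, r was 0.35 (rho = 0.26) for Hk1 and Hk2, 0.28 (rho = 0.14) for Hk1 and Hk3 and 0.82 (rho = 0.81) for Hk2 and Hk3. All genes of a library share its depth and scaling factor, and the values are a description without a test. Among 13028 other genes with an average log2 CPM of at least 0, those closest to Hk1 were the splicing factor Prpf8 (r = 0.99), Gcn1l1, an activator of an eIF2 kinase in yeast (r = 0.98), and the cap methyltransferase Cmtr1 (r = 0.97). Those closest to Hk2 were the mitochondrial antiviral adaptor Mavs (r = 0.96), the ubiquitin ligase Rnf166 (r = 0.96) and the mitochondrial GTPase Rhot2 (r = 0.94). Among those closest to Hk3 were the MHC class II chaperone subunit H2-DMb1 (r = 0.96) and the macrophage pore protein Mpeg1 (r = 0.93). Without the 2 libraries farthest from the median of the member, r was 0.93 to 0.97 for the genes of Hk1, 0.87 to 0.91 for those of Hk2 and 0.83 and 0.91 for those named for Hk3. Without HKII+/- replicates 19 and 22, r was 0.91 to 0.98 for the genes of Hk1, 0.69 to 0.86 for those of Hk2, and 0.95 and 0.97 for those named for Hk3. At r of 0.9 or more there were 37 genes for Hk1, 47 for Hk2 and 5 for Hk3, and the best of so many genes is high by choice.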

How the data were processed

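Poly(A) RNA of 12 hearts was sequenced in single-end reads of 100 nt, per the labels' protocols. Each library's deposited table holds raw read counts by gene symbol. The submitters' processing notes name STAR 2.4.0, featureCounts 1.4.4 and the builds mm10 and GRCm38. Neither the annotation release nor the strand setting is given in the sources used here. Groups came from the titles. No label names separate animals, so p-values measure the spread between these samples. Replicates differed by more than sampling noise (lowest chi-square per degree of freedom 7.03 over 30 pairs).

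The fit was edgeR 4.0.16 (glmQLFit, glmQLFTest) with no covariate, tested on simulated data. Genes were kept by filterByExpr at a minimum count of 10, libraries scaled by TMM, and p adjusted over all genes by Benjamini-Hochberg with a threshold of 0.05. Of the members Hk1, Hk2 and Hk3 passed the filter and Hkdc1 did not. Intervals are 95%. R was 4.3.3, Python 3.11.15 and scipy 1.17.1. Lengths and positions came from GENCODE vM21 (GRCm38). RefSeq promoter windows matched 4 of 4 members.

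Members and lists were chosen with earlier results of these data known. Named genes were the members, the 3 genes most like each tested member, and the 3 genes of smallest p per list. Some genes that this rule names are not reported here. Alternatives covered scaling, filter, DESeq2 1.42.0, limma 3.58.1, gene length and libraries left out, and those without replicates 19 and 22 were added after seeing the data.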

Additional observations from a re-analysis of the deposited data

Results flagged for a closer look

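In 14 sets of 6 libraries, the 2 genotypes for each of 7 hexokinase measures, 8 had a sample whose gap to its nearest neighbour, over the whole range, passed the 95% critical value of Dixon's test, and chance gives about 1 in 20. All 8 fell in the 2 libraries the submitters marked. The measures draw on the same counts and libraries, so the 14 sets are not independent. The 8 are therefore not separate results, and the rate of 1 in 20 holds for a single set. The library labelled HKII+/- replicate 11 stood above its genotype in Hk2 (568.2 CPM, others 256 to 354 CPM), in the Hk2 share (69.1%, others 53.1% to 55.4%), in Hk3 (6.72 CPM, others 1.04 to 1.79 CPM) and in the Hk3 share (0.817%, others 0.202% to 0.317%). On the TMM scale, HKII+/+ replicate 13 stood above its genotype in Hk1 (359 CPM, others 210 to 259 CPM). On that scale it was also above in the summed pool (1016 CPM, others 697 to 803 CPM). Scaled by the library's total alone, with no TMM factor, it lay within the range of the other HKII+/+ libraries in both. Hk1 was then 273 (others 214 to 276) and the pool 772 (others 709 to 857). Replicate 13 also stood higher in Hk3 (4.79 CPM, others 1.37 to 1.88 CPM) and in the Hk3 share (0.471%, others 0.194% to 0.248%).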

How the results depend on the processing

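The Hk2 share and the log2 ratio of Hk2 to Hk1 kept their direction and an exact permutation p under 0.05 in every alternative run for them. Leaving out 1 library gave -12.8 to -9.61 points and -0.79 to -0.58, and leaving out a further library without the marked ones gave -14.1 to -13.1 points and -0.87 to -0.80. The pool stayed at 65.6% to 77.9% of HKII+/+ under all alternatives. Without replicates 19 and 22 as well as the marked libraries, an alternative added after seeing the data, the log2 fold changes were -0.94 for Hk2, -0.09 for Hk1 and -0.25 for Hk3, and 1 gene was called. The Hk2 log2 fold change was negative throughout, at -0.87 to -0.57 with 1 library left out and -0.88 to -0.75 with a further one. It passed without the marked libraries (-0.80; with DESeq2 -0.80, with library totals -0.81) and with quality weights in limma voom (-0.88). The count of called genes, 0 with 12 libraries in edgeR (37 at unadjusted p under 0.05) and 0 in DESeq2 (64), was then 1, 3, 1 and 2, and 0 to 2 with a further library left out. The sign of Hk1 turned without the marked libraries (0.023; DESeq2 0.025, library totals 0.013) and without HKII+/+ replicate 13 alone, and ranged from -0.14 to 0.043 with 1 library out and -0.042 to 0.054 with a further one. The sign of Hk3 turned without the marked libraries (-0.17; DESeq2 -0.17, library totals -0.18), in limma voom (-0.049), with quality weights (-0.23) and without the library labelled HKII+/- replicate 11 alone (-0.57), and ranged from -0.57 to 0.55 and from -0.26 to -0.089. Neither passed in any fit, though DESeq2 gave Hk3 no adjusted p with 12 libraries. Hkdc1 did not pass the filter and was fitted only in the run without a filter, where 0 genes were called. The cause was not tested. No paired analysis was possible because no replicate number occurs in both genotypes. With no annotation release given, per-kilobase values rest on GENCODE lengths, and 26 to 158 counts limit Hk3.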
